A study of Mus musculus with 8 samples.

Results

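The machinery that couples excitation of the muscle membrane to calcium release was followed through 10 genes after a knockdown of Atad2 in mouse C2C12 cells. The genes were taken by symbol from a table of 35976 genes, and 10 of 10 were found: Ryr1, Cacna1s, Cacnb1, Cacng1, Stac3, Jph1, Jph2, Casq1, Casq2 and Atp2a1. C2C12 is an established line of mouse myoblasts, muscle precursors that divide in growth medium and fuse into myotubes when differentiation is induced. RNA was sequenced in 8 libraries, 4 from cells given a non-targeting shRNA (the non-targeting libraries, numbered as control replicates) and 4 from cells given an ATAD2 shRNA (the knockdown libraries, numbered as Atad2 replicates). Atad2 encodes a bromodomain ATPase of chromatin. All were harvested 48 h after transfection, the labels call all cells myoblasts, and no differentiation step is named. All libraries come from a single cell line, and the labels do not say whether they came from separate cultures, so a p-value here covers the spread among libraries, which may be technical.

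In skeletal muscle an action potential spreads into invaginations of the surface membrane, the T-tubules, where the voltage-sensing calcium channel sits opposite the ryanodine receptor of the sarcoplasmic reticulum. The pore and voltage sensor of that channel is encoded by Cacna1s, its beta and gamma subunits by Cacnb1 and Cacng1, and the adaptor that links it to the release channel by Stac3. The release channel itself is encoded by Ryr1. Junctophilins (Jph1, Jph2) hold the 2 membranes together, calsequestrins (Casq1, Casq2) bind calcium inside the store, and the pump SERCA1 (Atp2a1) refills it. Several of these genes are known to be turned on as myoblasts differentiate.

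The recovered depth was 61.4 to 73.0 Mreads (1000000 reads) per non-targeting library and 50.3 to 72.3 Mreads per knockdown library. A count of 3 reads, the floor allowed by counting error, corresponds to 0.0411 to 0.0596 reads per 1000000 (RPM). Atad2 itself was at 14.67 ± 0.06 and 11.93 ± 0.14 (SD, n = 4 each), a log2 fold change of -2.73 ± 0.05 (SE; limma adjusted p = 4.58e-20). All 7 myoblast markers examined had reads, with Myod1 at 12.61 and Des at 14.74 without the knockdown, on the log2 scale used below, and 3 of them were called higher and 4 lower with it (limma). Markers of other cell types without reads in any library were Nppa, Adgre1, Adipoq and Lum, while the cardiac factor gene Gata4 stood at 11.21 without and 11.38 with the knockdown. The library with the fewest reads, Atad2 replicate 3, was set apart by principal component 2 (8.29% of the variance).

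Levels are given as log2(normalized count + 1), and fold changes as the Atad2 group over the control group on that scale. The scale can understate or overstate changes of weak genes. Of the 10 genes, 6 were higher in the knockdown libraries, 1 was lower and 1 was not called (limma, threshold of 0.05 on the adjusted p over 14703 genes tested). The remaining 2, Cacna1s and Casq1, had a mean level of at most 3 over all libraries and were left out of that fit. These counts have to be read against a background in which 60.4% of all genes tested passed, 30.8% as higher and 29.6% as lower. A rise of at least 2-fold was rarer: it was found for 3 of the 8 genes tested (Ryr1, Casq2 and Atp2a1) and for 2.52% of all genes tested. Casq2 passed the filter only through the knockdown libraries, so it could only have been tested as a gene that differed. Without Casq2, 2 of 7 genes rose by at least 2-fold. The median log2 fold change of the 8 genes, Casq2 included, was 0.78, beside -0.009 for all genes tested. Without Casq2 the middle value was that of Stac3 (0.66).

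The values of the groups did not overlap for 8 of the 10 genes, 7 of them higher and 1 lower in the knockdown libraries. Among the 8 genes tested, 7 did not overlap, Casq2 among them, and over all genes tested 53.5% did not. In one direction the shares were 27.7% higher and 25.8% lower. Weakly expressed genes as a whole were more often lower than higher. Among tested genes with a mean level above 3 and up to 5, the range of Casq2, 5.51% were called higher and 27.4% lower. Above 5 and up to 7, the range of Stac3 and Atp2a1, the shares were 9.79% and 42.7%, and above 7 and up to 9, that of Ryr1 and Cacnb1, 15.0% and 45.2%. Strong genes, above 11 and up to 13 like Cacng1, Jph1 and Jph2, were higher in 46.9% and lower in 22.3%.

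**Figure D1:**
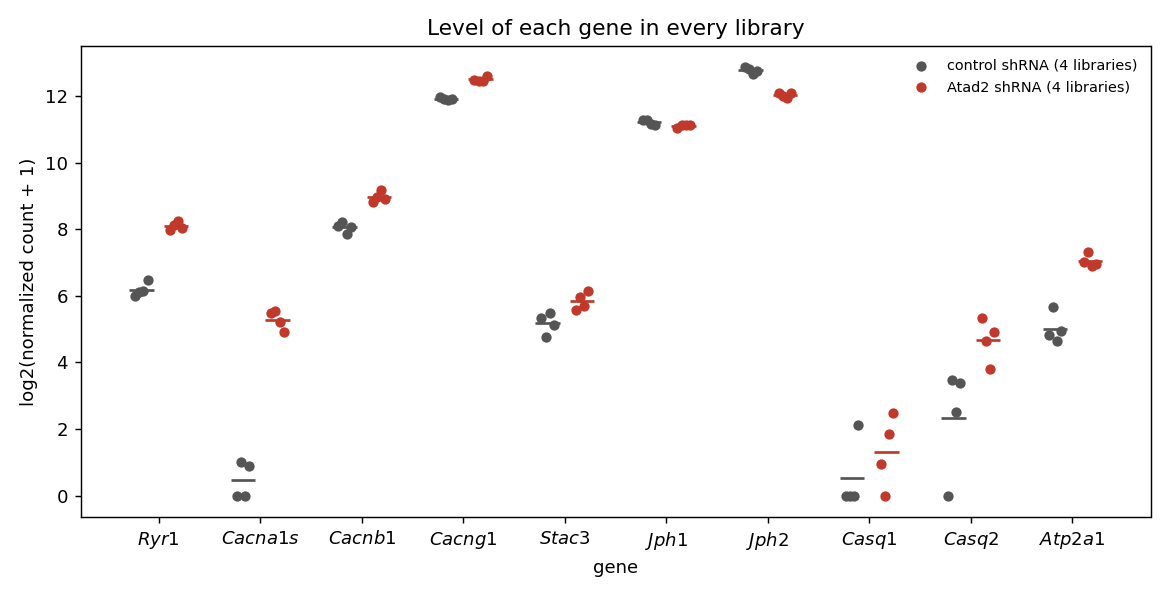
Level of the 10 genes, as log2(normalized count + 1), in each of the 4 control and 4 Atad2 shRNA libraries. Points are libraries and bars are group means. The groups are separate for every gene but Jph1 and Casq1, and Jph2 is the gene whose knockdown libraries lie below the controls.

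Markers of differentiating myocytes moved in the same libraries. Of 10 such markers 7 were tested, 5 were called higher, and 2 (Acta1 and Actc1) did not pass. Over all genes tested, 30.8% were called higher. Of the 5, Myh3 and Mb passed the filter only through the knockdown libraries. Mb overlapped between groups and lost its call without Atad2 replicate 1 (limma adjusted p = 0.0656) or 2 (0.0569) and with no filter (0.185). Myogenin (Myog) was at 4.79 without the knockdown and 6.94 in the knockdown libraries, and the fusogen gene Mymk, listed as Tmem8c, at 4.32 and 7.20. The summed normalized count of the 10 markers was 471 to 679 in the non-targeting libraries and 844 to 1200 in the knockdown libraries, and none of the 10 lacked reads in all libraries. Acta1, the strongest of the 10 at 8.97 without and 8.88 with the knockdown, made up most of the sum in the non-targeting libraries. In bulk RNA, more cells of a type and more RNA per cell cannot be told apart, and the part of these markers in the changes described here was not tested. Sums over other marker lists differed as well. The summed normalized count went from 2110 to 2203 without the knockdown to 5096 to 5248 with it for 4 fibroblast markers, from 217 to 266 to 504 to 634 for 3 immune markers, from 677 to 893 to 1002 to 1305 for 4 neuron markers and from 8592 to 9359 to 6546 to 6934 for 4 smooth muscle markers. Single genes carried these sums: Pdgfra (10.95 and 12.26) for fibroblasts, Cd68 (7.92 and 9.10) for immune cells, Tubb3 (9.56 and 10.15) for neurons and Smtn (13.06 and 12.72) for smooth muscle. The weaker fibroblast marker Col1a1 also rose, by 0.67 ± 0.16, as did Dcn (0.74 ± 0.25), which overlapped between groups. Lum had no reads. Weaker smooth muscle markers fell by more than Smtn, with Lmod1 at -2.87 ± 0.25 and Cnn1 at -2.82 ± 0.34, while Myh11 did not pass (-0.84 ± 0.62). Of the other immune and neuron markers, Adgre1 had no reads, Ptprc had 0 to 4 in either group, Snap25 and Rbfox3 had at most 2, and Syt1 was at 5.07 and 4.18. Myoblast markers went both ways, and their summed normalized count was 50867 to 54291 without the knockdown and 55426 to 61105 with it. Des rose by 0.38 ± 0.03 and Myod1 by 0.25 ± 0.04. Itga7, at 0.10 ± 0.04, lost its call under 5 of 19 alternatives. In the other direction, Myf5 changed by -1.28 ± 0.10 and Cdh15 by -0.96 ± 0.05. Pax7 changed by -3.27 ± 0.70, but it passed the filter only through the non-targeting libraries. Vcam1, at -0.19 ± 0.06, overlapped between groups and lost its call with no filter (limma adjusted p = 0.119). The part of these genes in the changes described here was not tested.

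Promoter sequences, 250 bases before to 50 bases after an annotated start, were matched for 7 of the 10 genes (RefSeq, GRCm38.p6). Entries were missing for Cacng1, Stac3 and Jph1. The windows below belong to 3 genes that were higher in the knockdown libraries and to Jph2, which was lower, and they are shown so that the gene that went the other way can be read beside them. Capitals mark the E-box CANNTG, the core recognised by MyoD, myogenin and related factors, searched on both strands. Ryr1 is at chr7:29125102-29125401 (minus strand), Cacna1s at chr1:136052561-136052860 (plus strand), Atp2a1 at chr7:126463024-126463323 (minus strand) and Jph2, by the first of its 2 windows, at chr2:163397944-163398243 (minus strand).
Ryr1: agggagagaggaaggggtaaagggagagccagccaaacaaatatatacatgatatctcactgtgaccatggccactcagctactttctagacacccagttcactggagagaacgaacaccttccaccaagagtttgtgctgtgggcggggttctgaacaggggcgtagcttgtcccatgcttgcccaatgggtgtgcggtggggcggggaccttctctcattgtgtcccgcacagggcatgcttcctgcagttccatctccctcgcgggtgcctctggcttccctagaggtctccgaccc
Cacna1s: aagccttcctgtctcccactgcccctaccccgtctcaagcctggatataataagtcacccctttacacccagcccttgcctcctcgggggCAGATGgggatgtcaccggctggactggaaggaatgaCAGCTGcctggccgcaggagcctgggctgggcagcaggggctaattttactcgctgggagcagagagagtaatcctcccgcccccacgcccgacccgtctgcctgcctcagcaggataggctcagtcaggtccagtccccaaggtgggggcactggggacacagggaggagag
Atp2a1: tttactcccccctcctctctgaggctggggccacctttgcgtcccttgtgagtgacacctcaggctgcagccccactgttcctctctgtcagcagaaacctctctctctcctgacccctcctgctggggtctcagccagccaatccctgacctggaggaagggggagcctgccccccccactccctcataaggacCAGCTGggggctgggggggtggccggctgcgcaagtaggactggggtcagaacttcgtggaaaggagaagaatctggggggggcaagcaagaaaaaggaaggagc
Jph2: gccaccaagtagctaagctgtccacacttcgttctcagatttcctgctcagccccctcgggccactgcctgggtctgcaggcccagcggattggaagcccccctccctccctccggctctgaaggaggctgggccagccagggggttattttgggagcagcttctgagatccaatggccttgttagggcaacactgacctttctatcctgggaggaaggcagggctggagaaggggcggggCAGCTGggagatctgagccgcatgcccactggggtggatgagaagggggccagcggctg

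The form CAGCTG, which is contained in the CANNTG search, was present in the windows of Cacna1s (123 bases before the start), Atp2a1 (55 before), Casq1 (195 before) and Jph2 (9 before in the first window). For Atp2a1, Casq1 and the second Jph2 window, the end of the window was not found in any GENCODE transcript of the gene. The starts used there are therefore less certain. By window, it was found in 5 of the 9 windows of these 7 genes, of which Cacnb1 and Jph2 have 2 each. The 2 windows of Jph2 overlap and hold the same site, so by gene it was found in 4 of the 7. It occurs in 16.3% of all 32851 windows of the same length. Any CANNTG was found in 7 of the 9 windows, or in 6 of the 7 genes, against 72.3% of all windows, with none in the window of Ryr1. A MEF2 site was found in the Casq2 window alone (1.86% of all windows), and neither a CArG box (1.63%) nor TATAAA (13.6%) was found in any of the 7. CAGCTG was therefore present both in genes that were higher and in Jph2, which was lower. These matches describe letters in a window and not binding.

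The release channel gene Ryr1 (chromosome 7, 29003340 to 29125179, GRCm38, protein-coding) rose. Its levels were 6.00, 6.10, 6.14 and 6.46 in the non-targeting libraries and 7.97, 8.14, 8.24 and 8.04 in the knockdown libraries. Every knockdown library lay above every non-targeting library, with 226 to 294 reads against 67 to 103. The log2 fold change was 1.92 ± 0.16 (SE; 3.79-fold, limma adjusted p = 2.75e-09), with an exact permutation p of 0.0286 (two-sided), the lowest possible for 4 against 4 libraries. The antisense gene Gm26604, which overlaps its exons, had no reads in any library.

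The genes with profiles nearest to Ryr1 among 11797 compared, by root mean square difference over the 8 libraries after subtracting the control mean, were Fam84a (0.095), Ptgr1 (0.128) and Gbe1 (0.144). Ptgr1 encodes an NADPH-dependent reductase and Gbe1 the glycogen branching enzyme.

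Cacna1s (chromosome 1, 136052806 to 136119822, protein-coding), the pore and voltage sensor, was almost without reads in the non-targeting libraries. It had 0, 1, 0 and 1 reads in the non-targeting libraries and 48, 48, 28 and 25 in the knockdown libraries. The levels were 0.00 to 1.00 without the knockdown and 4.90 to 5.55 with it, with no overlap (exact two-sided permutation p = 0.0286, the smallest possible). Summed over libraries, 149 reads stood against 2, or 0.604 against 0.0075 RPM, a ratio of 80.4 (exact conditional binomial 95% interval 21.9 to 670, counting error only). The non-targeting value rests on 2 reads, and the ratio was 60.5 to 124 when any 1 library was left out, the highest being without control replicate 2. With no filter on weak genes Cacna1s was called higher (limma adjusted p = 0.000452). On the other strand Gm37759 overlaps 1309 of its 6550 exon bases, and with the strand setting of the counting unknown, reads of the pair cannot be told apart there.

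The beta subunit gene Cacnb1 (chromosome 11, 98001508 to 98023034, protein-coding) rose, from levels of 8.09, 8.23, 7.85 and 8.07 in the non-targeting libraries to 8.82, 8.97, 9.17 and 8.91 in the knockdown libraries. The groups did not overlap, and the log2 fold change was 0.91 ± 0.11 (1.88-fold, limma adjusted p = 6.47e-07). Cacng1 (chromosome 11, 107703218 to 107716476, protein-coding), the gamma subunit, was already strong without the knockdown. It stood at 11.96, 11.92, 11.88 and 11.91 there and at 12.49, 12.46, 12.46 and 12.60 in the knockdown libraries, a rise of 0.58 ± 0.04 (1.5-fold, limma adjusted p = 5.83e-11). The non-targeting values of Cacng1 varied little (SD 0.03), and the smallest knockdown value was well above the largest non-targeting value.

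Stac3 (chromosome 10, 127501617 to 127508823, protein-coding), the adaptor without which the voltage sensor does not couple well to the release channel, was weak in both groups. Its levels were 5.34, 4.76, 5.48 and 5.13 without the knockdown and 5.57, 5.96, 5.68 and 6.14 in the knockdown libraries, from 26 to 47 and 39 to 64 reads. The groups lay next to each other without overlap, and the log2 fold change was 0.66 ± 0.28 (limma adjusted p = 0.0466). Of 19 alternatives, 9 removed that call (limma adjusted p 0.00145 to 0.13), including the replicate block (0.0651) and limma-voom on reads (0.0575). It also missed the threshold without control replicate 1 (limma adjusted p = 0.0545), 2 (0.13) or 4 (0.0813), and without Atad2 replicate 2 (0.0991) or 4 (0.119).

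Ratios between the release channel gene and the channel subunit genes were also followed. The log2 ratio of Ryr1 to Cacng1 within a library was -5.74 ± 0.22 without the knockdown and -4.40 ± 0.17 in the knockdown libraries (SD, n = 4 each), a change of 1.34 (exact permutation p = 0.0286). The ratio of Ryr1 to Cacnb1 changed by 1.01 (exact permutation p = 0.0286), and its knockdown values lay within -0.93 to -0.83. Cacnb1 against Cacng1 changed by 0.33 (exact permutation p = 0.0571), and Atp2a1 against Ryr1 by 0.11 (exact permutation p = 0.686). These 4 pairs were chosen after their values were seen, and adjusted over the 4 none passed, with p = 0.0571 for the first 2 by the exact permutation test.

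Neither junctophilin gene rose. Jph2 (chromosome 2, 163336242 to 163398049, protein-coding), the form best known from heart and also present in skeletal muscle, stood at 12.86, 12.82, 12.66 and 12.75 in the non-targeting libraries and between 11.94 and 12.10 in the 4 knockdown libraries. All knockdown values were below all non-targeting values, and the log2 fold change was -0.74 ± 0.04 (1.67-fold lower, limma adjusted p = 1.04e-11). Jph1 (chromosome 1, 16942104 to 17097922, protein-coding), the skeletal muscle form, was at 11.28, 11.28, 11.15 and 11.13 without the knockdown and 11.03, 11.12, 11.12 and 11.14 in the knockdown libraries. These values overlapped, and the difference of -0.11 ± 0.05 did not pass (limma adjusted p = 0.0682, 95% interval -0.207 to -0.004). It did pass as lower with cyclic loess (limma adjusted p = 0.0117) and quantile normalization (0.0151), with library weights (0.0456) and without control replicate 4 (0.0385) or Atad2 replicate 4 (0.0488), in a range of 0.0117 to 0.197 over 19 alternatives.

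The pair of junctophilins changed by unequal amounts. The log2 ratio of Jph1 to Jph2 was -1.58, -1.54, -1.50 and -1.62 in the non-targeting libraries and -1.05, -0.88, -0.82 and -0.96 in the knockdown libraries, a change of 0.64 (exact permutation p = 0.0286, and 0.0286 adjusted over the 3 planned pairs that could be tested). Per kilobase of exon, Jph1 made up 22.4% ± 0.598 of all junctophilin counts without the knockdown and 30.9% ± 1.44 in the knockdown libraries (SD, n = 4 each). The genes nearest to Jph2 in profile were Klhdc8a (0.039), Lss (0.041), which encodes lanosterol synthase, and Myo1c (0.042), which encodes an unconventional myosin.

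The calcium store genes were weak throughout. Casq1 (chromosome 1, 172209894 to 172219895, protein-coding), the calsequestrin of fast fibres, had 0, 0, 0 and 4 reads in the non-targeting libraries and 1, 0, 2 and 4 in the knockdown libraries. Those values overlapped (exact permutation p = 0.371), and the ratio of summed reads of 1.89 had a counting interval of 0.48 to 8.8, so no difference was detectable at this depth. The gene Gm17224, which overlaps Casq1 on the other strand, was at 28 to 57 reads without the knockdown and 3 to 12 in the knockdown libraries.

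Casq2 (chromosome 3, 102086415 to 102146514, protein-coding), the calsequestrin of heart and slow fibres, had 0, 10, 5 and 11 reads in the non-targeting libraries and 43, 25, 10 and 25 in the knockdown libraries. Its levels were 0.00, 3.47, 2.50 and 3.37 against 5.33, 4.64, 3.79 and 4.90, without overlap, though control replicate 1 had no read. The log2 fold change was 2.33 ± 0.67 (limma adjusted p = 0.00522), and summed reads gave a ratio of 4.28 (counting interval 2.76 to 6.85). The call was lost when no filter on weak genes was used (limma adjusted p = 0.147). The log2 fold change of Casq2 was 1.56 without control replicate 1 and 1.30 with an offset of 8 in place of 1.

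Atp2a1 (chromosome 7, 126445858 to 126463103, protein-coding), the fast-fibre calcium pump, stood at 4.82, 5.65, 4.65 and 4.94 in the non-targeting libraries and at 7.02, 7.31, 6.91 and 6.96 in the knockdown libraries. There was no overlap, with 26 to 49 reads against 93 to 165. The log2 fold change was 2.04 ± 0.25 (4.1-fold, limma adjusted p = 6.02e-07). Its exons overlap those of Rabep2 on the other strand, and the strand setting of the counting is not given in the sources used here. Rabep2 itself stood at 10.23 ± 0.07 and 10.18 ± 0.10 (SD, n = 4 each), a difference of -0.04 ± 0.06 that did not pass (limma adjusted p = 0.603). The genes nearest to Atp2a1 in profile were Pla2g5 (0.202), a secreted phospholipase gene, Foxq1 (0.267), a forkhead factor gene, and Fam84a (0.278). Fam84a was also the nearest to Ryr1. The measure largely follows the size of the change, which was 1.94 for Fam84a, 1.92 for Ryr1 and 2.04 for Atp2a1. The shared neighbour therefore shows no likeness beyond similar fold changes.

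Set per kilobase of union exon length, the 10 genes spanned a wide range without the knockdown. The order was led by Cacng1, at 3097 ± 68.9 normalized counts per kilobase (SD, n = 4), followed by Jph2 (1645 ± 97.9), Jph1 (475 ± 25.8) and Cacnb1 (58.9 ± 6.31). Stac3 (14.1 ± 2.97) and Atp2a1 (9.37 ± 3.27) overlapped in range, as did Ryr1 (3.29 ± 0.49) with Casq2 (2.2 ± 1.71), Casq2 with Casq1 (0.435 ± 0.869), and Casq1 with Cacna1s (0.0707 ± 0.0823). In the knockdown libraries Cacng1 (4643 ± 226), Jph2 (984 ± 50.2), Jph1 (441 ± 15.3) and Cacnb1 (111 ± 11.7) kept that order. Below them Atp2a1 (38.1 ± 4.97) lay above Stac3 (22.3 ± 4.1), and Ryr1 (12.5 ± 1.05), Casq2 (9.59 ± 4.01) and Cacna1s (5.9 ± 1.19) followed, with neighbouring ranges that overlapped, and Casq1 was last (1.04 ± 1.04). Thus the pore gene of the channel remained far below its gamma subunit per kilobase in both groups. Union exon length counts every annotated isoform, so levels of genes with long minor isoforms are understated.

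Most of these genes have paralogs that are not the adult skeletal muscle form. Of 24 paralogs listed, 15 were tested, 7 rose, 6 fell and 2 did not pass. Of these 15, Ryr2, Cacna1d, Cacng4 and Cacng6 passed the filter through a single group. Cacng2, Cacng5, Cacna2d2 and Cacna2d3 had no reads in any library. The count of paralogs that rose was 2 to 4 under 9 of 20 alternatives, among them leaving out control replicate 3 or 4 (4 each) or Atad2 replicate 1 (3), 2 (3) or 3 (4).

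Among ryanodine receptors, Ryr3, the form found in immature muscle, was at 10.54 ± 0.13 and 9.71 ± 0.16, a fall of -0.83 ± 0.08 (limma adjusted p = 1.59e-08), with 1537 to 1654 reads per non-targeting library and 604 to 855 per knockdown library. Ryr2, the heart form, went from 11 to 24 reads to 1 to 8 (-2.10 ± 0.60, limma adjusted p = 0.00479). The log2 ratio of Ryr1 to Ryr3 was -4.37 ± 0.30 without the knockdown and -1.61 ± 0.23 in the knockdown libraries, a change of 2.75 (exact permutation p = 0.0286, adjusted over the 3 planned pairs 0.0286). Per kilobase, Ryr1 held 3.61, 3.37, 3.81 and 5.3% of ryanodine receptor counts in the non-targeting libraries and 21.8, 22.9, 25.2 and 18.7% in the knockdown libraries. Ryr3 still held 77.6% ± 2.8 in the latter (SD, n = 4). The family total per kilobase was 82.6 ± 6.79 without the knockdown and 57 ± 4.98 in the knockdown libraries, without overlap (exact permutation p = 0.0286, and 0.0714 adjusted over 5 families).

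Among channel subunits, the pore gene Cacna1d changed by -3.65 ± 0.70 (limma adjusted p = 0.000144), from 13 to 66 reads per non-targeting library to 0 to 8 per knockdown library. For Cacna1d it was -4.34 without Atad2 replicate 4 and -1.94 with an offset of 8. Cacnb2 fell by 0.48 on the log2 scale (SE 0.08), and Cacnb3, the beta subunit with the highest level here, from 12.74 ± 0.05 to 12.59 ± 0.07, while Cacnb1 rose. The share of Cacnb1 among beta subunit counts per kilobase was 3.22% ± 0.408 without the knockdown and 6.53% ± 0.751 in the knockdown libraries, and Cacnb3 held 93.1% and 90.6%. Of the gamma subunit family, Cacng4 rose by 2.68 ± 0.40, from 5 to 7 reads to 34 to 48, and Cacng7 by 1.27 ± 0.30. Cacng6, called at 1.94 ± 0.70, overlapped between groups and lost its call without control replicate 2 (limma adjusted p = 0.0648, range 0.00217 to 0.207). Without Atad2 replicate 3 the difference of Cacng6 was 2.54. The alpha-2/delta gene Cacna2d1 differed by 0.14 ± 0.04, a call lost with cyclic loess (limma adjusted p = 0.381) and quantile normalization (0.34). Cacna1g, at 1.11 ± 0.45, was not called in 7 of 18 alternatives (limma adjusted p 0.00354 to 0.219), such as without control replicate 3 (0.0907), control replicate 4 (0.134), Atad2 replicate 1 (0.0779), Atad2 replicate 2 (0.101) or Atad2 replicate 3 (0.0583).

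**Figure D2:**
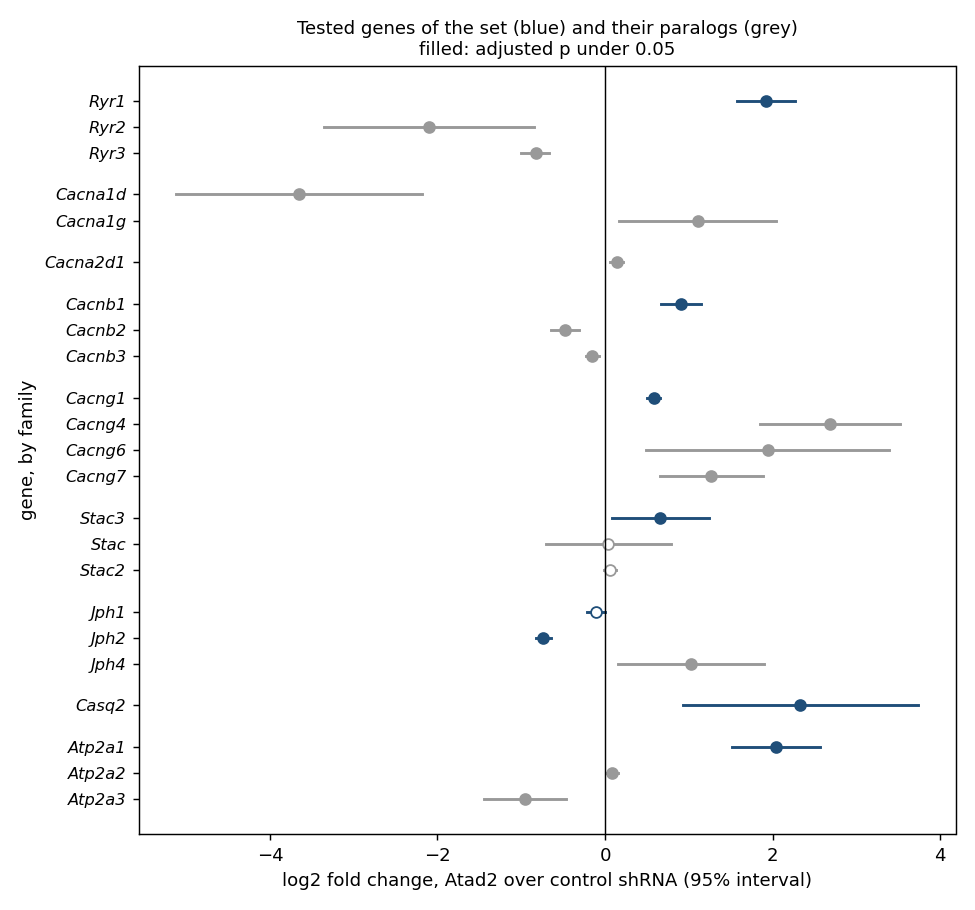
Log2 fold change, Atad2 over control shRNA, with its 95% interval for the tested genes of the set (blue), grouped by family. Grey marks the tested genes of the paralog list, which includes the alpha-2/delta gene Cacna2d1. Filled points have an adjusted p under 0.05. Ryr1 lies to the right of 0 and Ryr2 and Ryr3 to the left, and Atp2a1 to the right with Atp2a3 to the left.

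The adaptor Stac3 remained a minor member of its family. Stac2 stood at 13.25 ± 0.06 and 13.31 ± 0.02, a difference of 0.06 ± 0.03 that did not pass (95% interval -0.01 to 0.13, limma adjusted p = 0.135), and Stac at 5.54 ± 0.31 and 5.59 ± 0.89. Stac3 held 0.448% ± 0.0981 of STAC counts per kilobase without the knockdown and 0.68% ± 0.12 in the knockdown libraries, with overlapping values. Jph4, a junctophilin of neurons, was at 10 to 19 reads without the knockdown and 13 to 44 in the knockdown libraries. Its call (1.03 ± 0.42, limma adjusted p = 0.0389) did not hold in 6 of 18 alternatives (limma adjusted p 0.00332 to 0.187), such as without control replicate 3 (0.109), control replicate 4 (0.0635), Atad2 replicate 1 (0.0657), Atad2 replicate 2 (0.116) or Atad2 replicate 3 (0.116).

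Among the calcium pumps, Atp2a2, the widely used SERCA2, stood at 14.17 ± 0.01 without the knockdown and 14.25 ± 0.07 in the knockdown libraries. Its difference of 0.08 ± 0.03 passed narrowly (limma adjusted p = 0.0416), overlapped between groups, lost its call under 11 of 19 alternatives (limma adjusted p 0.0015 to 0.595), among them leaving out any single library but Atad2 replicate 4 (0.0562 to 0.161), and took the opposite sign with quantile and cyclic loess normalization. Atp2a3, the form of blood and endothelial cells, fell from 6.71 ± 0.28 to 5.75 ± 0.31 (-0.96 ± 0.23, limma adjusted p = 0.0014), a call lost with quantile normalization (limma adjusted p = 0.0641, range 0.000492 to 0.0641). The log2 ratio of Atp2a1 to Atp2a2 was -9.35, -8.53, -9.52 and -9.22 in the non-targeting libraries and -7.31, -6.97, -7.35 and -7.19 in the knockdown libraries, a change of 1.95 (exact permutation p = 0.0286, adjusted over the 3 planned pairs 0.0286). Atp2a1 held 0.305% ± 0.104 of pump counts per kilobase without the knockdown and 1.17% ± 0.14 in the knockdown libraries, so that Atp2a2 held 99% and 98.5%.

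**Figure D3:**
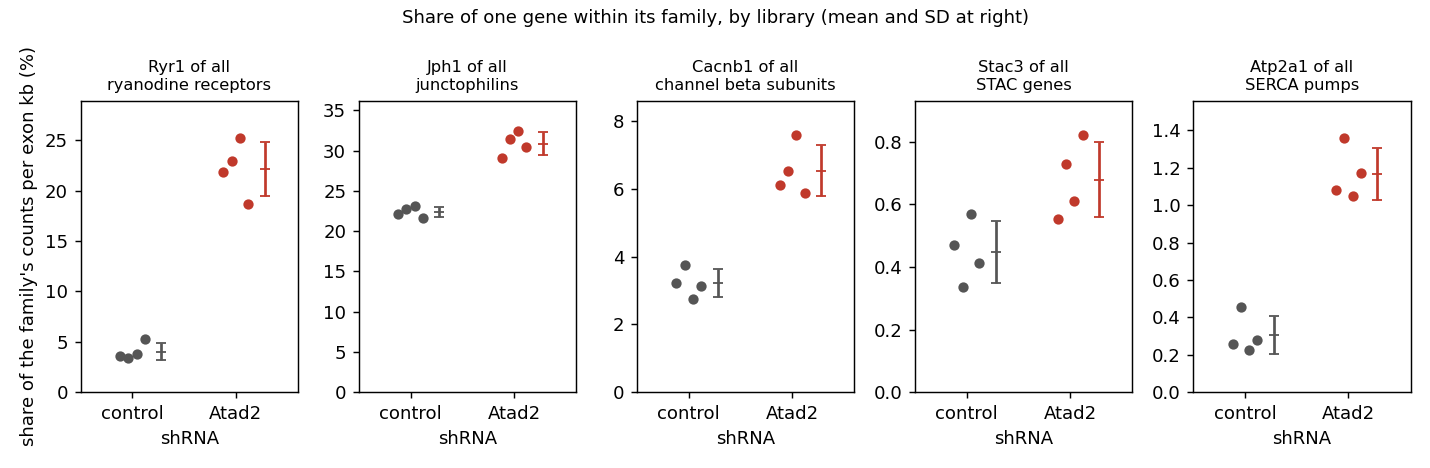
Share of Ryr1, Jph1, Cacnb1, Stac3 and Atp2a1 in the normalized counts per exon kilobase of their own families, in percent, for each control and Atad2 shRNA library. Points are libraries, and the bars at the right give mean and SD. The Ryr1 share goes from 3.37 to 5.3% without the knockdown to 18.7 to 25.2% in the knockdown libraries, and the scale of the vertical axis differs between panels.

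The paralogs and 5 further lists of calcium and membrane genes held 128 genes, of which 125 were in the table. Of 91 tested, 32 rose, 25 fell and 34 did not pass, beside a background of 30.8% higher and 29.6% lower, and the median log2 fold change was 0.02. The triad and T-tubule list had 22 tested genes, of which 8 rose, 4 fell and 10 did not pass (median 0.04). The endocytic recycling gene Ehd1 rose by 0.46 ± 0.04, the muscle kinase gene Speg by 0.35 ± 0.03, the potassium counter-ion channel gene Tmem38b by 0.40 ± 0.07 and Fkbp1a, whose product binds the release channel, by 0.19 ± 0.03. Ahnak changed by -0.53 ± 0.04, Mtmr14 by -0.31 ± 0.06, Ank1 by -0.20 ± 0.06 and Bin1, which shapes T-tubules, by -0.09 ± 0.03, a call lost without control replicate 1 (limma adjusted p = 0.0595, range 1.45e-05 to 0.0595). Triadin (Trdn), which anchors calsequestrin to the release channel and was picked out here after its value was seen, rose by 2.28 ± 0.39, from 7 to 13 reads per non-targeting library to 33 to 59 per knockdown library (limma adjusted p = 3.55e-05). Cav3, the caveolin of muscle, had no reads without the knockdown and 0 to 2 in the knockdown libraries.

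In the store lumen and pump regulator list, 3 of 11 tested genes rose, 2 fell and 6 did not pass (median 0.01). The shares over all genes tested were 30.8% higher and 29.6% lower. The chaperone gene Hspa5 rose by 0.44 ± 0.04 and the reticulum calcium-binding gene Rcn1 by 0.27 ± 0.03, and Sdf4 and Calu changed by -0.33 ± 0.03 and -0.13 ± 0.03. Sarcalumenin (Srl) differed by 0.20 ± 0.07, a call lost without control replicate 1 (limma adjusted p = 0.0518) or 4 (0.0522) or Atad2 replicate 3 (0.0697). With quantile or cyclic loess normalization 6 genes of this list fell, and 5 rose with library weights or without Atad2 replicate 4. The small pump inhibitors sarcolipin (Sln) and phospholamban (Pln) had no reads in any library, and myoregulin (Mrln) was at 10 to 17 reads without the knockdown and 0 to 4 in the knockdown libraries, under the filter.

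Genes of store-operated entry and IP3 receptors divided as 6 higher, 3 lower and 4 not past the threshold of 13 tested (median 0.10). All genes tested divided as 30.8% higher and 29.6% lower. The entry channel genes Orai2 and Orai1 rose by 1.12 ± 0.07 and 0.40 ± 0.08, the IP3 receptor gene Itpr3 by 0.40 ± 0.03 and the scaffold gene Homer3 by 0.62 ± 0.05. The store sensor gene Stim1 changed by -0.19 ± 0.05, Itpr2 by -0.32 ± 0.05, and the channel gene Trpc1 by -3.15 ± 0.39, with 95 to 121 reads per non-targeting library and 5 to 17 per knockdown library.

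Of 23 tested genes of cytosolic calcium binding and extrusion, 4 rose, 7 fell and 12 did not pass (median -0.04). The background was again 30.8% higher and 29.6% lower. The surface calcium pump gene Atp2b1 rose by 0.85 ± 0.03 and Camk2d, a calmodulin kinase gene, by 0.34 ± 0.04. Ppp3r1 of calcineurin rose by 0.19 ± 0.04, and Ppp3cb differed by 0.15 ± 0.04, a call lost with cyclic loess (limma adjusted p = 0.192) and quantile normalization (0.2). S100a1, whose product binds the release channel, changed by -1.02 ± 0.07 and Camk2g by -0.30 ± 0.04.

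Among 7 tested genes of sarcolemmal excitability, 4 rose and 3 fell (median 0.22), and 10 were under the filter. Beside them stand 30.8% higher and 29.6% lower over all genes tested. The muscle chloride channel gene Clcn1 rose by 0.87 ± 0.15 and the inward rectifier gene Kcnj12 by 2.12 ± 0.34. The inward rectifier gene Kcnj2 changed by -1.39 ± 0.07 and Atp1b1 by -0.92 ± 0.08. Scn4a, the sodium channel of adult muscle, had 0 to 5 reads without the knockdown and 2 to 10 in the knockdown libraries. Limma adjusted p-values of the tested genes named in these 5 further lists were all under 0.05.

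**Figure D4:**
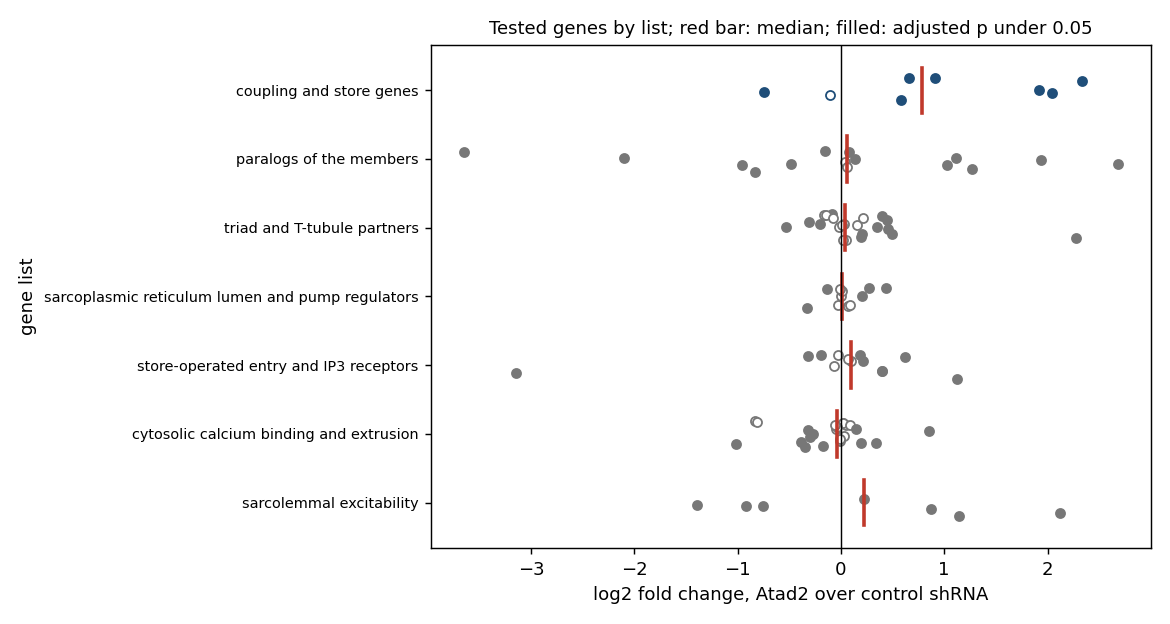
Log2 fold change, Atad2 over control shRNA, of each tested gene in the coupling and store set (blue) and in the 6 wider lists (grey). Red bars are medians and filled points have an adjusted p under 0.05. The median of the coupling and store set, Casq2 included, is 0.78, and those of the wider lists lie between -0.04 and 0.22.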

How the data were processed

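RNA of 8 C2C12 libraries, 4 per shRNA, was used. The authors deposited log2 values, log2(normalized count + 1), with 1 size factor for each library. This form was read from the values: back-transformed low values lay on whole multiples of a step within 0.1 reads for 100% of them, and reads were recovered with that step. High read counts are approximate, since the table is rounded. HTSeq 0.13.5, DESeq2 (no version), bcl2fastq 2.20, SAMtools 1.1 and build mm10 are named in the submitters' processing notes. Which aligner, gene models and strand option were used was not stated in those sources.

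The test for genes with a mean above 3 was limma 3.58.1, run in R 4.3.3 (eBayes with trend, two-sided, Benjamini-Hochberg adjusted p under 0.05 over 14703 genes). Ratios within libraries, family totals and weak genes were compared by exact permutation over the 35 distinct splits, in Python 3.11.15 with NumPy 2.4.6, pandas 2.3.3 and SciPy 1.17.1. Of 7 pairs listed, 3 could be tested, as the others include a gene under the filter. Exon lengths and overlaps came from GENCODE on GRCm38, the assembly of mm10, and promoter windows from RefSeq. Named were Atad2, the 10 genes, their tested paralogs, up to 4 genes per list and direction by adjusted p, and the 3 nearest profiles (mean of at least 5, predicted genes left out). A few genes selected this way are not reported here. The genes and lists were chosen with earlier results of these data known. The fit was tested on simulated data before use. Plots were made in matplotlib 3.10.9. Alternatives were other filters, offsets, normalizations and limma settings, a replicate block, limma-voom on recovered reads, a stricter threshold and leaving out each library.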

Additional observations from a re-analysis of the deposited data

Results flagged for a closer look

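In 3 of 136 groups of 4 libraries examined, a library lay far from the others, and chance gives about 1 in 20. Casq1 was at 2.13 in control replicate 4, from 4 reads, and without reads in the other controls. Ahnak stood at 19.12 in control replicate 4, a little under the other controls. Trpc1 stood at 6.50 in control replicate 1, below the other controls.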

How the results depend on the processing

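The count of genes of the set that were higher (6) was 5 to 7 over 20 alternatives. The count that were lower (1) was 2 with quantile normalization, cyclic loess normalization and library weights, and 1 to 2 when any 1 library was left out, through Jph1. Cacna1s passed the filter only when a control library was left out, through its high group, so its place in those counts is no support. Of the wider lists, 26 to 34 genes rose and 23 to 33 fell, against 32 and 25. Atp2a2 changed sign with quantile (-0.02) and cyclic loess normalization (-0.03). The count of paralogs that rose (7) was 2 with no filter, 3 with a mean above 5 or an adjusted p under 0.01, 4 without trend, 5 with quantile or cyclic loess normalization and 3 to 6 when any 1 library was left out. For 8 genes of the set, 143 of 159 values under alternatives kept their direction and side of the threshold, and the others were those of Stac3, Jph1 and Casq2.

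Replicate numbers are shared by both groups, and same-numbered libraries did not clearly deviate together (correlations -0.023 to 0.034). The best match had the same number for replicates 1 and 3 and a different number for replicates 2 and 4. A shared handling step could leave no trace in such correlations, so whether the libraries are paired is unknown. With the replicate block 5 genes of the set were higher and 1 lower. As paired differences the changes were 0.64 for Jph1 against Jph2, 1.95 for Atp2a1 against Atp2a2, 2.75 for Ryr1 against Ryr3, 1.34 for Ryr1 against Cacng1 and 1.01 for Ryr1 against Cacnb1, each with the smallest p that 4 exact sign flips allow (0.125), so this test could not pass the threshold. Cacnb1 against Cacng1 ranged from 0.24 to 0.38 when any 1 library was left out. Without control replicate 2 it was 0.38, with an unadjusted exact permutation p of 0.0286, the lowest possible there. This pair was chosen after its values were seen. With all libraries it did not pass once adjusted over the added pairs (exact permutation p = 0.0762). Depth limits Casq1, Casq2 and Cacna1s, which rest on fewer than 50 reads per library.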
